A study of Mus musculus with 6 samples.

Results

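Regulators that set the rhythm of the cell cycle were followed in uterine RNA of mice that lack Indian hedgehog (Ihh). They are the activators E2f1, E2f2 and E2f3, the atypical repressors E2f7 and E2f8, the pocket proteins Rb1 and Rbl1 (p107), the MuvB subunit Lin9, its partner Mybl2 (B-MYB), and the forkhead factor Foxm1. All probe sets with these 10 symbols as their only platform symbol were taken, which gave 24 of 34945 named probe sets and 10 of 18193 genes. A further probe set that shares its symbol field between Foxm1 and other genes was left out by that rule.

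The study profiled whole uterus of 3 Ihhf/f samples, which carry floxed Ihh alleles and served as control, and of 3 Ihhd/d samples (PRcre/+ Ihhf/f), in which Cre from the progesterone receptor locus deletes those alleles wherever that receptor is expressed. Both groups share the floxed alleles, and only the Ihh-ablated group is described as carrying the Cre, so the Cre and the loss of Ihh cannot be told apart. Tissue of both groups dates from day -1 of the artificial decidual response, in which hormones and a stimulus make the stroma decidualize. The labels give no age, do not say whether a sample is 1 mouse or a pool, and name a SmoM2 model in their source field in both groups, against their own titles and genotypes.

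Biotinylated cRNA of each sample went onto 1 Affymetrix array, and the values are processed intensities per probe set on a linear scale. Nothing says that the samples of a group came from separate animals, so the p-values speak only of the spread among these 6 samples, part of which may be technical. Array medians ranged from 121.4 to 142.5, and control replicate 2 had the highest. The Ihh probe set read 164, 162 and 140.2 in control replicates 1 to 3 and 121, 93.3 and 135 in Ihh-ablated replicates 1 to 3, and this difference did not pass the test (log2 -0.43, limma adjusted p = 0.164). Whether that probe set lies in the deleted part is not known. Of the Hedgehog target genes, Gli1 fell by 2.53 on the log2 scale (limma adjusted p = 0.000492) and Ptch1, by its brightest probe set, by 1.65 (adjusted p = 0.00146), with no overlap between the groups. Markers of uterine tissue were bright on every array, with summed intensities of 49081 to 53080 for 7 smooth muscle, 49340 to 55290 for 11 stromal and 11535 to 18327 for 11 epithelial genes. The summed intensity of 8 tested adipocyte markers was 3149 to 14022 in control and 11163 to 25988 in Ihh-ablated arrays, and that of 9 exocrine pancreas markers was 82148 in Ihh-ablated replicate 2 against 985 to 3019 elsewhere. Striated muscle markers (8, a list added after seeing the data) summed to 9016 in control replicate 3 and to 812 to 1146 elsewhere. Between genotypes 0 of the adipocyte and 0 of the pancreas markers passed (limma), with 6 of 8 and 0 of 9 at an unadjusted p under 0.05. Over the array 3761 of 15530 genes had such a p.

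In a resting cell, pocket proteins of the RB family hold E2F factors at the promoters of replication genes and keep them silent. Cyclin-dependent kinases phosphorylate the pocket proteins, free the activator E2Fs and so start S phase, and E2F7 and E2F8 later turn the same promoters down again. The MuvB core, with LIN9, then joins B-MYB and FOXM1 to switch on the genes of mitosis. Several of these regulators are themselves E2F targets, so their transcripts rise in cycling cells. In the uterus, stromal cells divide under progesterone and oestrogen before implantation and decidualization.

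Promoter sequences were at hand for 7 of the 10 genes (E2f1, E2f2, E2f3, E2f7, E2f8, Mybl2 and Rbl1), from RefSeq on GRCm38.p6, each window spanning 300 bases around a gene start, with 2 windows each for E2f2 and E2f3. The windows were searched on both strands for the E2F site (TTTCCCGC, TTTCGCGC, TTTGCCGC or TTTGGCGC) and for the CHR element through which MuvB binds mitotic promoters (TTTGAA or TTCGAA), and also for the CCAAT box (CCAAT), which the factor NF-Y binds. The stretches with a match are shown because E2F and MuvB are the regulators at issue, in capitals where the E2F site lies, and in the second E2f2 stretch and that of E2f8 where the CHR element lies, on the strand of the gene (GCGGGAAA and TTCAAA are these words read from the opposite strand).
E2f3, chr13:29986047-29986094, minus strand: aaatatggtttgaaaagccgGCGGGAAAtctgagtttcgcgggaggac
E2f7, chr10:110745221-110745268, plus strand: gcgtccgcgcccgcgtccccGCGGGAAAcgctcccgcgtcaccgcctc
Rbl1, chr2:157204525-157204572, minus strand: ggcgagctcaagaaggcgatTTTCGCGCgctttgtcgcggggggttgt
E2f2, chr4:136172303-136172323, plus strand: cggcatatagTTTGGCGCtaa
E2f2, other window, chr4:136180731-136180776, plus strand: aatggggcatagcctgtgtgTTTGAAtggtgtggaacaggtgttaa
E2f8, chr7:48881591-48881636, minus strand: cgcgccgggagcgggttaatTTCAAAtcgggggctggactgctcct
An E2F site stood in the windows of 4 of the 7 genes, and a CHR element in those of 3 (E2f2, E2f3 and E2f8). In E2f2 the E2F site and the CHR element lay in separate windows, and in E2f3 in the same one. Among all 27025 genes with a window, 2.6% had an E2F site and 21.7% a CHR element. A CCAAT box stood in windows of 4 of the 7, and in those of 41.1% of all genes. No window of these genes held more than 1 E2F site, so none could overlap another. The windows of E2f1 and Mybl2 held neither an E2F site nor a CHR element, which says only that these letters are not in those windows.

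The atypical repressor E2f8 was the clearest change among the regulators. Its brighter probe set (1436186_at) read 148, 136 and 126 in control replicates 1 to 3 and 80.8, 80.9 and 93.1 in Ihh-ablated replicates 1 to 3. Every Ihh-ablated array lay well below every control array, and the mean fell from 136.7 ± 10.6 to 84.9 ± 7.0 (intensity ± SD, n = 3 each). The fall was 1.61-fold (log2 -0.69, SE 0.13, 95% interval -0.97 to -0.40, limma adjusted p = 0.0286). In whole tissue, fewer cells that express a gene and less of its RNA per cell cannot be told apart. The other E2f8 probe set was dimmer and stayed below the intensity filter, so it was not tested. It read 74.9, 96.6 and 62.4 in the controls and 54.0, 54.6 and 59.7 after ablation, again with no overlap. In a fit without the filter it did not pass, while the brighter one did (limma adjusted p = 0.0438). The call of E2f8 was lost without control replicate 1 (adjusted p = 0.108) and without Ihh-ablated replicate 1 (0.141), 2 (0.122) or 3 (0.0812), and likewise with quantile normalization (0.0602), arrays centred on their medians (0.0555) or cyclic loess (0.0717). It was also lost without both arrays with the highest striated muscle or pancreas marker sum (control replicate 3 and Ihh-ablated replicate 2, 0.0604). The same held with a covariate for adipocyte marker level (0.361). Its log2 difference stayed between -0.75 and -0.57 in all 19 alternatives that tested it. E2f8 passed in 10 of them, as many as the E2f1 probe set 1417878_at.

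E2f7, the partner of E2f8 in repression, has a single probe set, which read 111, 79.5 and 113 in the controls and 56.7, 62.7 and 72.4 after ablation. The groups did not overlap, and control replicate 2 was nearest to the Ihh-ablated arrays. The difference was of like size to that of E2f8 (log2 -0.65, SE 0.17) but did not pass the test (limma adjusted p = 0.0851, 95% interval -1.03 to -0.27). Without control replicate 2 it was -0.82 and passed (adjusted p = 0.0365), and without any other single array it was -0.75 to -0.56 and did not pass (0.0863 to 0.230).

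The activator E2f1 was measured by 3 probe sets that gave different pictures. One of them (1417878_at) read 115, 153 and 131 in the controls and 84.7, 85.1 and 83.7 after ablation, a fall from 132.9 ± 18.9 to 84.5 ± 0.7. The Ihh-ablated arrays were almost level with each other and all lay below the lowest control array. This 1.56-fold fall passed the test (log2 -0.64, SE 0.13, limma adjusted p = 0.0466). The brightest E2f1 probe set (1431875_a_at) read 313, 397 and 328 in the controls and 328, 311 and 315 after ablation, where the groups overlapped and only control replicate 2 stood out. Its log2 difference was -0.12 (95% interval -0.38 to 0.14, adjusted p = 0.548), and that of the third probe set was -0.10 (-0.37 to 0.17, adjusted p = 0.618). Between the probe set that fell and the brightest one, the change differed by -0.53 on the log2 scale. An exact permutation test, two-sided, gave p = 0.1 for that contrast (0.267 adjusted over 8 pairs of probe sets), and 0.1 is the smallest p that 3 arrays against 3 allow. The call of 1417878_at was lost without control replicate 1 (limma adjusted p = 0.0716) or 2 (0.0587), without Ihh-ablated replicate 1 (0.166), 2 (0.148) or 3 (0.186), without the intensity filter (0.0690) and without a variance trend (0.0548). Without both control replicate 3 and Ihh-ablated replicate 2 the log2 difference was -0.65 (adjusted p = 0.0977), and with the adipocyte covariate it was -0.74 (0.293). It stayed between -0.74 and -0.53 in all 19 alternatives that tested it.

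The other activators had smaller log2 differences, and none of their tested probe sets passed. E2f2 read 84.5, 109 and 98.6 in the controls and 84.4, 77.2 and 77.2 after ablation, so the groups all but touched between both first replicates (log2 -0.28, 95% interval -0.58 to 0.02, limma adjusted p = 0.241). A dimmer E2f2 probe set, not tested, read 85.3, 84.9 and 82.0 in control against 48.9, 61.0 and 61.4, a wider gap than in the tested one (log2 -0.57). It lay just under the filter, at percentile 23.5 by mean level, where the filter removed the lowest 25%. In the fit without that filter it was tested and did not pass, as 1 of 24 passed there, the brighter one of E2f8. The E2f3 probe sets differed by -0.22 (-0.56 to 0.11) and -0.13 (-0.46 to 0.19), with adjusted p values of 0.381 and 0.582. In the brighter of these the groups overlapped.

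**Figure D1:**
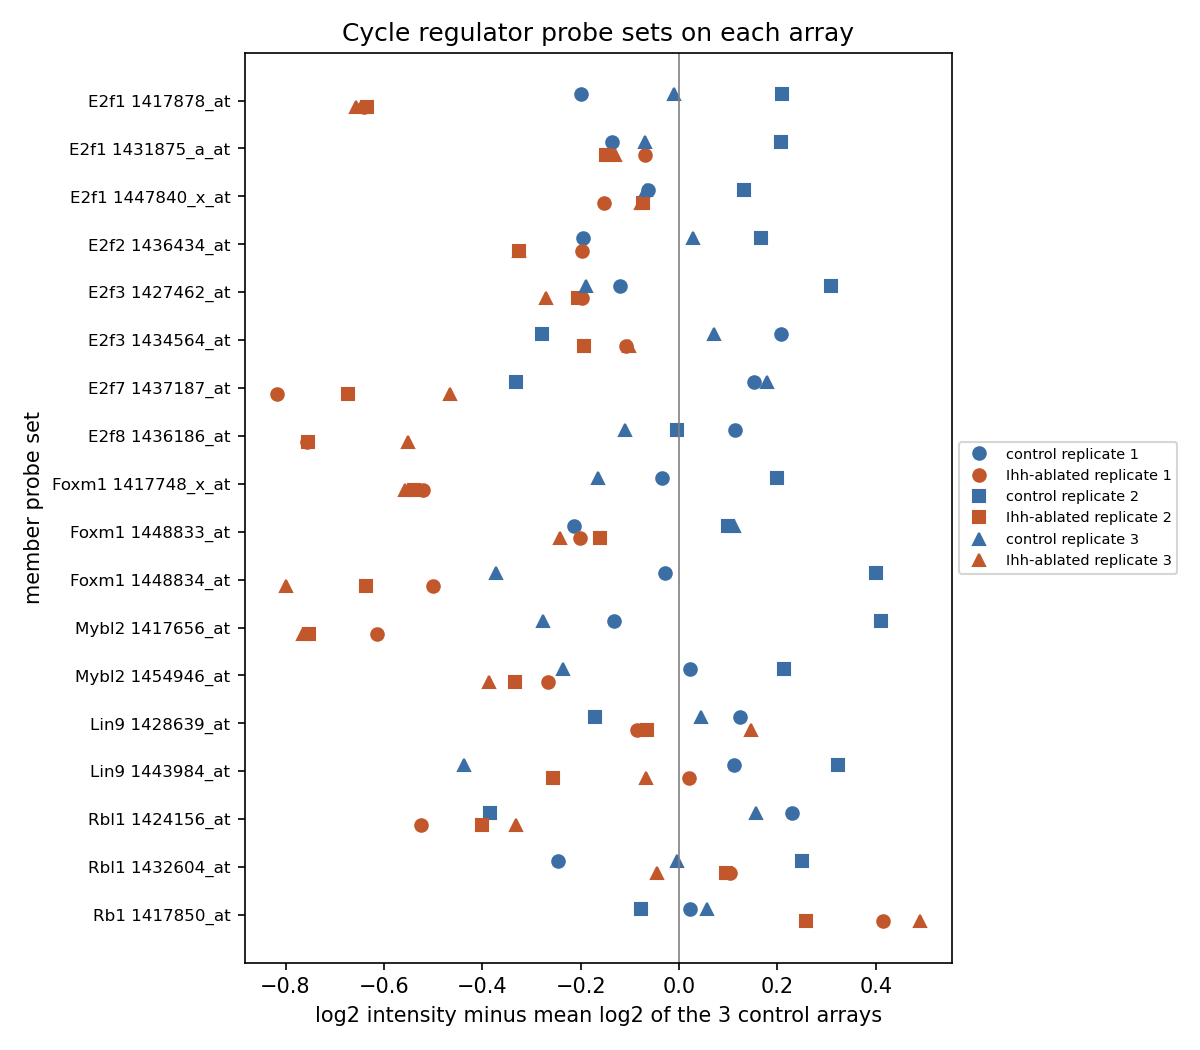
Log2 intensity of the 18 tested probe sets on each array, relative to the mean of the 3 control arrays (horizontal axis); blue marks are control and orange marks Ihh-ablated arrays, with 1 symbol per replicate number. The orange marks of 10 probe sets lie left of all blue marks, those of Rb1 lie right of them, and control replicate 2 is the highest array in 11 of 18.

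Foxm1, the driver of the mitotic programme, had lower means in Ihh-ablated uteri in its 3 tested probe sets, and none passed the test. The brightest (1417748_x_at) read 131, 153 and 119 in the controls and 93.1, 92.0 and 90.8 after ablation, with no overlap and with the Ihh-ablated arrays close together. The log2 difference was -0.54 (SE 0.13, 95% interval -0.83 to -0.25, limma adjusted p = 0.0720). A second one (1448834_at) read 135, 182 and 107 against 97.6, 88.9 and 79.3 (log2 -0.65, adjusted p = 0.114). The third differed by -0.20 (adjusted p = 0.370), and its groups overlapped. The last Foxm1 probe set, with values of 6.23 to 22.1, was among the dimmest 1% of the array (percentile 0.755) and was not tested. Without control replicate 3 the first and second passed (-0.62, adjusted p = 0.0254, and -0.83, adjusted p = 0.0196), in a fit that called 3569 probe sets over the array against 724 with all arrays. Without any other single array neither passed: the first was -0.56 to -0.44 (0.0814 to 0.256) and the second -0.72 to -0.45 (0.175 to 0.355).

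Mybl2, which encodes the B-MYB that joins the MuvB complex, had the most negative log2 difference among the tested probe sets, but from a dim one. This probe set (1417656_at) read 91.0, 133 and 82.3 in the controls and 65.2, 59.2 and 58.7 after ablation. The groups did not overlap, and control replicate 2 was far above the other arrays. The log2 difference was -0.71 (SE 0.18, 95% interval -1.12 to -0.31, limma adjusted p = 0.0801), and without control replicate 3 it was -0.85 and passed (adjusted p = 0.0217), in that same fit with more calls. Without any other single array it did not pass, at -0.51 without control replicate 2 (0.0845) and -0.78 to -0.68 without control replicate 1 or 1 Ihh-ablated array (0.158 to 0.265). The brighter Mybl2 probe set read 125, 143 and 105 against 102, 97.8 and 94.3 (log2 -0.33, adjusted p = 0.207). Lin9, the MuvB subunit that is present in both the repressing and the activating complex, read 130.1, 106 and 123 in the controls and 112, 114 and 132 after ablation. These values overlapped fully (log2 0.00, 95% interval -0.30 to 0.30, adjusted p = 0.995), and the dimmer Lin9 probe set differed by -0.10 (-0.54 to 0.33).

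The brightest probe sets of the pocket proteins had log2 differences of opposite sign, and neither passed the test. Rb1, which restrains the activator E2Fs, read 258, 241 and 265 in the controls and 339, 304 and 357 after ablation. It was the only tested probe set of the 18 whose Ihh-ablated arrays all lay above the control arrays, as did 13.1% of all tested probe sets. The mean was 254.7 ± 12.1 in control and 333.6 ± 26.9 in Ihh-ablated uteri (log2 0.39, SE 0.11, 95% interval 0.15 to 0.63, limma adjusted p = 0.0990), and it passed in 0 of 20 alternatives. Rbl1, itself an E2F target, read 232, 151 and 220.2 in the controls and 137, 150 and 157 after ablation, where control replicate 2 fell among the Ihh-ablated arrays (log2 -0.42, 95% interval -0.80 to -0.04, adjusted p = 0.187). Without control replicate 2 its difference was -0.61 and passed (adjusted p = 0.0407), and without any other single array it was -0.46 to -0.30 and did not pass (0.248 to 0.390). Another Rbl1 probe set gave 0.05 (-0.28 to 0.39). The remaining probe sets of Rb1 and Rbl1 were too dim to be tested, at the 4.07 to 12.3 percentile.

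**Figure D2:**
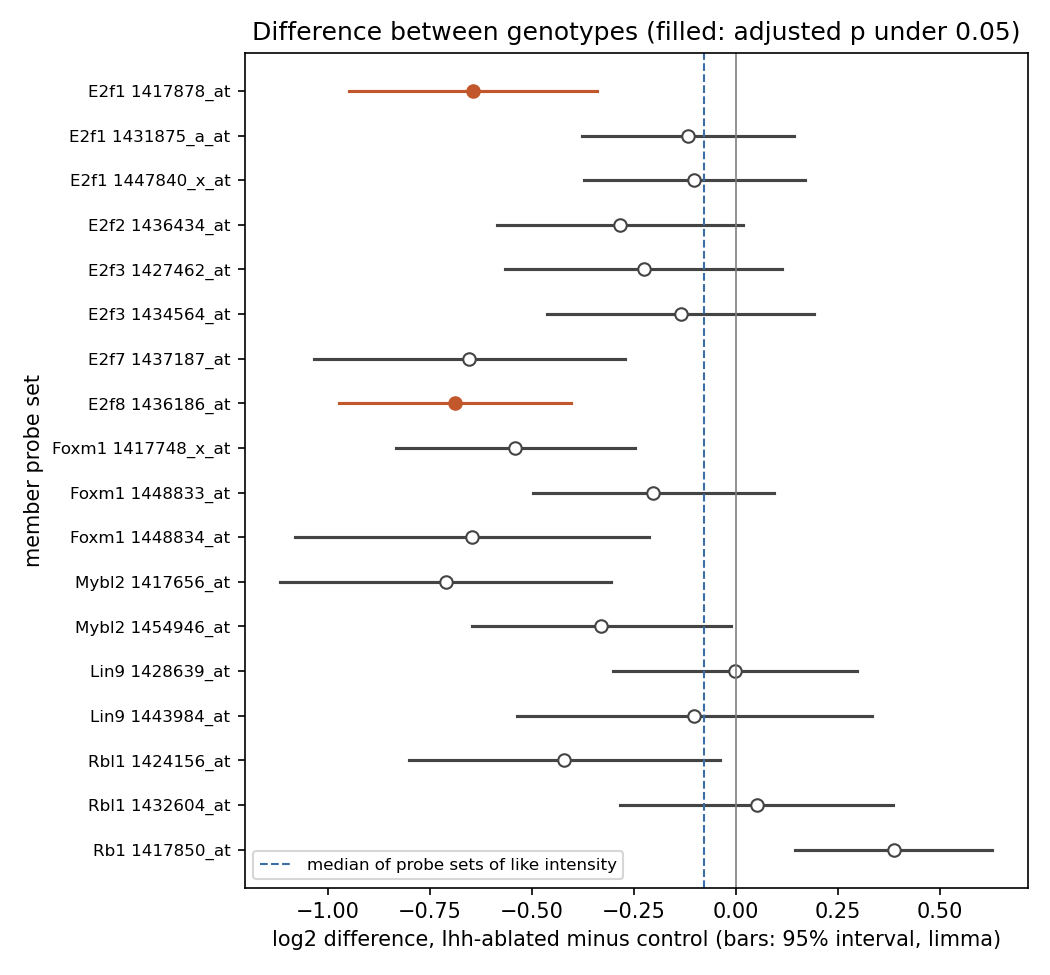
Log2 difference of each tested probe set, Ihh-ablated minus control, with its 95% interval from limma; filled orange marks passed an adjusted p of 0.05, and the dashed line is the median of all probe sets of like intensity. E2f8 at -0.69 and 1 of 3 E2f1 probe sets at -0.64 passed, while the intervals of Lin9 and E2f3 span 0. Those of E2f2, the other E2f1 probe sets, Foxm1 (1448833_at) and Rbl1 (1432604_at) also span 0.

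In all, 18 of the 24 probe sets passed the intensity filter, and each of the 10 genes had at least 1 among them. Of those 18, 2 fell and 0 rose, against 1.11% of all 33778 tested probe sets that fell and 1.03% that rose. By the brightest probe set of each gene, 1 of 10 fell (E2f8) and 0 rose, against 1.53% and 1.28% of 15530 genes. The Ihh-ablated arrays lay below all control arrays in 10 of 18 probe sets, and in 17.9% of all probe sets tested. The median log2 difference was -0.25 over the 18 probe sets and -0.04 over all tested (-0.16 and 0.05 with median-centred arrays). With 2 calls among 18, the count rests on E2f8 and 1 E2f1 probe set alone. No set of regulators was tested as a whole. Control replicate 3 and Ihh-ablated replicate 2 had the highest striated muscle and pancreas marker sums. Without these arrays 0 of the 18 passed and the median was -0.29. That fit kept Ihh-ablated replicate 3, where the adipocyte marker sum was highest (25988). With the mean of the adipocyte markers added as a covariate 0 passed and the median was -0.28. At an unadjusted p under 0.05 stood 9 of the 18 with all arrays (7736 of 33778 over the array), 8 without those arrays (7527 of 33778) and 6 with the covariate (2904 of 33778). The number of regulator probe sets past the test was 0 without control replicate 1 or any 1 of the Ihh-ablated arrays, where 156 to 345 of 33778 passed over the array. It was 3 without control replicate 2 (353 over the array) and 5 without control replicate 3 (3569 over the array). The fit without both control replicate 3 and Ihh-ablated replicate 2 called 1915 over the array, and that with the covariate 23.

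These regulators were dim on the array, with most tested probe sets between percentile 28.7 and 60.7 of the array, Rb1 at 75.4 and the brightest E2f1 probe set at 78.3. Among the 22318 tested probe sets in the same range of mean intensity (78.0 to 331), the median log2 difference was -0.08, and 0.887% fell. In that range control replicate 2 lay 0.16 above the 6-array mean on the log2 scale, and the other arrays between -0.07 and -0.01. The regulators' own median in control replicate 2 was 0.29 above the mean, and in control replicates 1 and 3 it was 0.14 and 0.06, against -0.18 to -0.10 in the Ihh-ablated arrays. The shift of dim probe sets in control replicate 2 thus had the same sign as that of the regulators and was smaller. Without control replicate 2, 3 of the 10 genes passed by their brightest probe set, all lower, E2f7, E2f8 and Rbl1. After quantile normalization 1 of the 18 probe sets passed, as it did with median-centred arrays and after cyclic loess, and in each it was the E2f1 probe set 1417878_at.

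**Figure D3:**
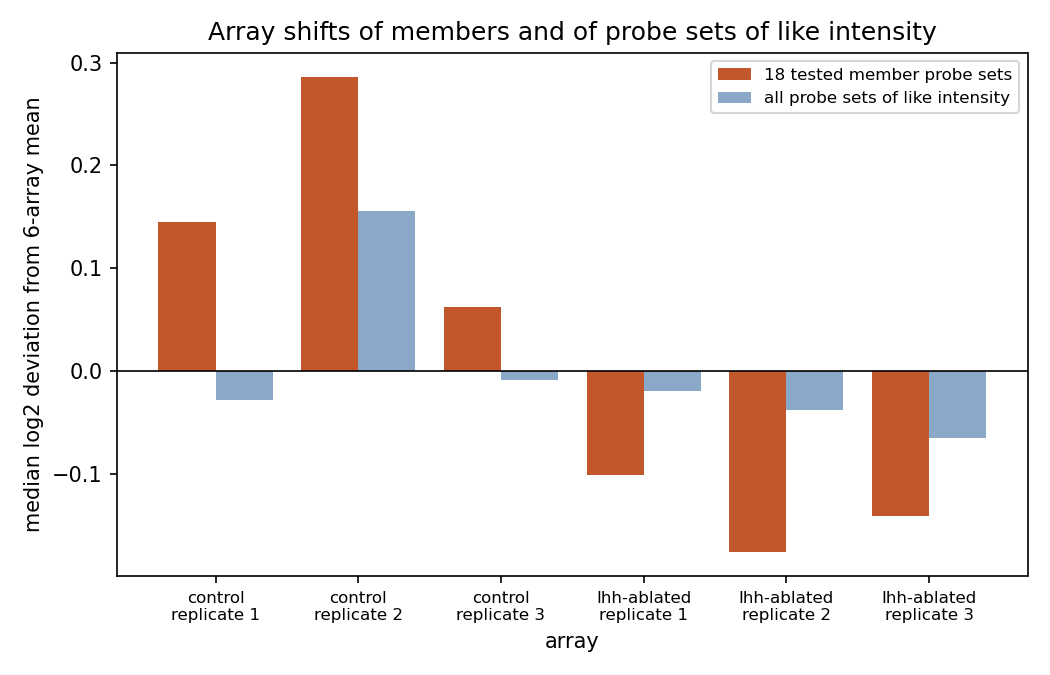
Median log2 deviation from the 6-array mean on each array, for the 18 tested regulator probe sets (orange) and for all 22318 tested probe sets of like intensity (blue); bars start at 0. Regulators lie above 0 in all 3 control arrays and below 0 in all 3 Ihh-ablated arrays, and control replicate 2 is high in both.

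Binding partners and relatives of these regulators did not pass the test. Of 12 such genes 11 were tested, and 0 fell and 0 rose (limma), with a median of -0.04 (0.05 with median-centred arrays). Among them 3 had an unadjusted p under 0.05 (Myb, Rbl2 and E2f5), a share near that over the array (3761 of 15530 genes). Myb, the haematopoietic relative of Mybl2, read 162, 132 and 174 in the controls and 239.6, 237 and 212 after ablation (log2 0.56, limma adjusted p = 0.0675). Of the fits that leave out 1 array, Myb passed only in that without control replicate 3 (0.65, adjusted p = 0.0234), which called 3569 probe sets over the array. Myb also passed with array weights (0.51, limma adjusted p = 0.0321, with 1411 calls over the array). By the mean of its probe sets it passed with a larger log2 difference (0.83, limma adjusted p = 0.0253). Rbl2 (p130), the pocket protein of resting cells, read 651, 516 and 608 against 789, 692 and 924 (log2 0.43, limma adjusted p = 0.111). Rbl2 passed without control replicate 3 and Ihh-ablated replicate 2 (0.56, adjusted p = 0.0484, with 1915 calls over the array) but in no fit that leaves out 1 array. It also passed with the replicate number as a block (0.43, limma adjusted p = 0.0358, with 1562 calls over the array). In both genes all Ihh-ablated arrays lay above all control arrays, as in 2069 of 15530 genes over the array. E2f5, a repressor E2F that binds p130, read 502, 732 and 529 against 491, 426 and 432 (log2 -0.37, adjusted p = 0.181). Tfdp1, the dimer partner of E2Fs, differed by -0.19 (adjusted p = 0.266).

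Upstream of E2F, 3 of 17 genes for cyclins, kinases and inhibitors of the first gap phase fell and 0 rose, with a median of -0.17. Over the array 1.53% of genes fell and 1.28% rose. At an unadjusted p under 0.05 (limma) stood 6 of the 17, against 3761 of 15530 genes. Ccne2 (cyclin E2), which activates the kinase that completes pocket protein phosphorylation and is an E2F target, read 164, 120.3 and 121 in the controls and 38.8, 62.9 and 63.9 after ablation. It fell 2.49-fold (log2 -1.31, SE 0.21, limma adjusted p = 0.0180), with no overlap. Skp2, the ubiquitin ligase subunit that removes the inhibitor p27, fell by 0.72 (adjusted p = 0.0240), and Ccnd1 (cyclin D1) by 0.40 (adjusted p = 0.0389). Cdk4, the kinase that cyclin D1 binds, differed by -0.30 (adjusted p = 0.0851). The count was 0 without control replicate 1 or Ihh-ablated replicate 1, and 1 without control replicate 2, Ihh-ablated replicate 2 or Ihh-ablated replicate 3. It was 0 with the adipocyte covariate, where 4 had an unadjusted p under 0.05 (2904 of 33778 probe sets over the array).

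The textbook targets of these regulators had larger median differences than the regulators. Of 25 tested E2F-driven replication genes 17 fell and 0 rose, with a median of -0.78. Of 25 tested mitotic genes driven by B-MYB and FOXM1 21 fell and 0 rose, with a median of -1.18. Over the array 1.53% of 15530 genes fell. Mcm6, a subunit of the replicative helicase, read 878, 771 and 780.1 in the controls and 278, 288 and 299.8 after ablation. It fell 2.80-fold (log2 -1.49, SE 0.09, limma adjusted p = 0.000492), and the groups were far apart. Mcm5 (-1.58, adjusted p = 0.00121), the reductase subunit Rrm2 (-1.65, 0.00139) and Uhrf1, which keeps up DNA methylation at replication (-1.61, 0.00243), followed. Mki67, the proliferation antigen, read 961, 912 and 888 against 223, 229 and 334 (log2 -1.84, SE 0.15, adjusted p = 0.00139). Top2a, the topoisomerase of dividing cells (-1.27, 0.000997), the cyclin Ccna2 (-1.67, 0.00139) and the mitotic kinase Cdk1 (-1.71, 0.00152) also fell. The other replication genes that passed were Tk1, Mcm7, Lig1, Pole, Mcm2, Mcm4, Cdc6, Cdt1, Rrm1, Pcna, Mcm3, Fen1 and Gins1. The other mitotic genes that passed were Birc5, Cks2, Bub1, Cdc20, Cenpe, Ccnb2, Cenpa, Nek2, Kif20a, Ube2c, Tpx2, Kif2c, Kif23, Aurkb, Aurka, Plk1 and Prc1. The regulators and these lists were set side by side as counts and medians, and the difference between them was not tested. Many of the targets were also brighter on the array than most regulator probe sets, and the part of brightness in these medians was not tested. The replication count was 11 without Ihh-ablated replicate 1 (156 calls over the array) and the mitotic count 14 without control replicate 1 (177 over the array). Both counts were 16 and 21 without control replicate 3 and Ihh-ablated replicate 2 (1915 over the array). They were 3 and 4 with the adipocyte covariate (23 of 33778 probe sets over the array). With that covariate the medians were -0.63 and -1.12, and 18 and 22 of the 25 genes had an unadjusted p under 0.05 (limma). Over the array 2904 of 33778 probe sets had such a p in that fit.

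**Figure D4:**
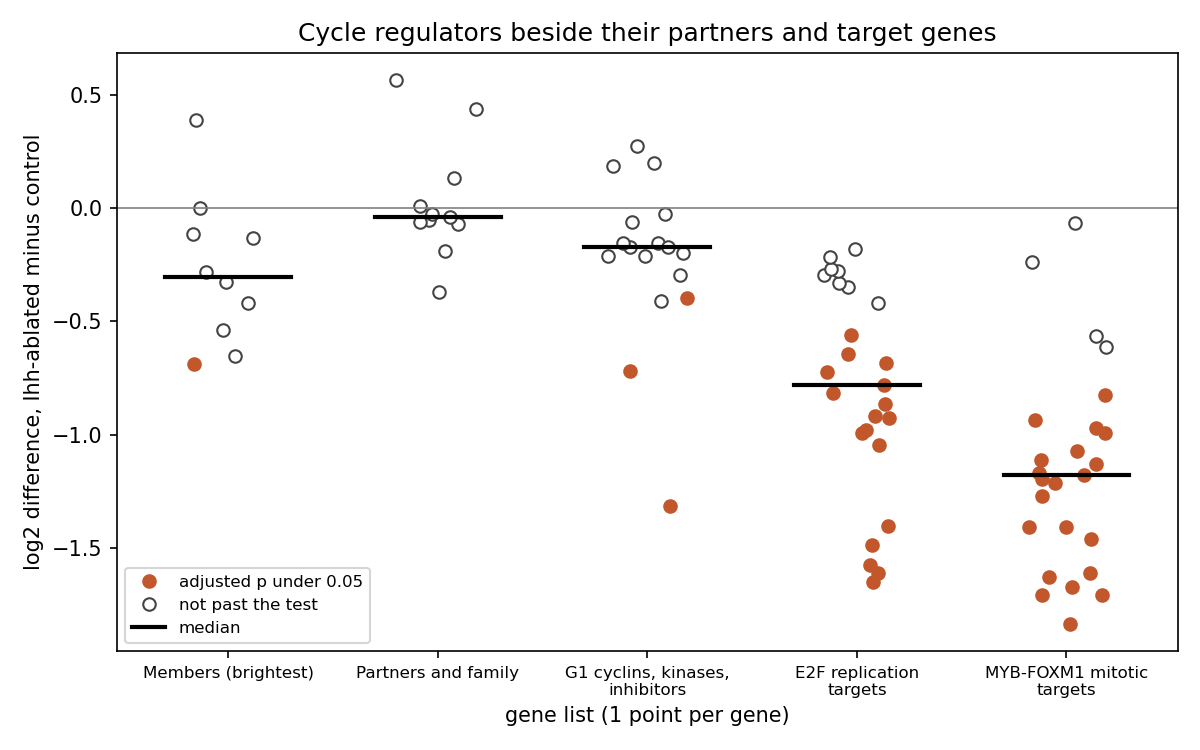
Log2 difference, Ihh-ablated minus control, of each gene by its brightest tested probe set (1 point per gene, sideways scatter without meaning), for the 10 regulators, their partners, the genes upstream and both target lists; filled points passed an adjusted p of 0.05 and bars are medians. The median goes from -0.31 in the regulators and -0.04 in their partners to -0.78 in replication targets and -1.18 in mitotic targets.

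The promoter words were unequally spread over both target lists. An E2F site stood in 11 of 22 replication genes with a promoter window and in 1 of 21 mitotic genes, where 2.6% of all genes had one. A CHR element stood in 5 of 22 replication and 16 of 21 mitotic genes, where 21.7% of all genes had one. A CCAAT box stood in 15 of 22 replication and 19 of 21 mitotic genes, where 41.1% of all genes had one. E2f8, with its CHR element at position -20 from the start, had no E2F site in its window. E2f3, which had both within a few bases of each other, did not pass the test. A match in such a window is a description of letters, not a bound site.

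Other cell types were read from marker lists in the same samples. All 11 epithelial markers lay higher in Ihh-ablated uteri with 0 past the test (limma, 6 at an unadjusted p under 0.05, median 0.39), and their summed intensity was 11535 to 17075 in control and 16519 to 18327 in Ihh-ablated arrays. Of 11 stromal markers 2 fell, Thy1 (-1.44) and Vim (-0.37), and 1 rose, Dcn (0.24), with a median of -0.10 and sums of 51104 to 55290 against 49340 to 51405. Of 7 smooth muscle markers 1 fell, Actg2 (-0.25). Of 6 endothelial markers 1 fell, Cdh5 (-0.57), and of 6 immune markers 0 passed (limma, 1 at an unadjusted p under 0.05). Such an unadjusted p was also found for 6 of the 11 stromal, 3 of the 7 smooth muscle and 1 of the 6 endothelial markers. Over the array 3761 of 15530 genes had one, while 1.53% of genes fell and 1.28% rose past the test. None of these tested markers read 0 on the arrays, which says little, since only markers past the intensity filter were tested. The part of these differences in the values of the regulators was not tested.

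Finally, the genes whose profile over the 6 arrays was closest to a regulator were listed, by the root mean square difference of mean-centred log2 values. For Foxm1 (1417748_x_at) these were Fcrla (0.036), Dnah6 (0.040), Ccdc89 (0.041), Lamc3 (0.042) and Fmod (0.043) among 15529 genes. None of these 5 passed the test between genotypes, and their log2 differences were -0.61 to -0.48. For E2f1, by its brightest probe set, they were Prss44 (0.014), Dohh (0.015), Dtnb (0.020), Tmem231 (0.020) and Fmr1nb (0.021), none of them past the test. None of the target genes above was among either group of 5. The measure compares the size of a change as well as its course, so targets with a much larger log2 difference were kept out beforehand. Other targets had differences of like size, such as Pcna (-0.56) beside Foxm1 and Orc1 (-0.18) beside E2f1. Why those were not among the 5 was not tested, and nothing is concluded from the absence of targets. The median log2 difference was -0.78 in replication and -1.18 in mitotic targets. It was -0.54 for this Foxm1 probe set and -0.12 for this E2f1 probe set. Whether the targets share the course of the regulators apart from size was not tested.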

How the data were processed

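Biotinylated cRNA was hybridised to 6 arrays, per the labels' protocols, and the deposited table gives linear intensities that the authors had already processed. How probes were summarised, corrected and normalized is not stated in the labels or the file, and no detection calls were used, so dim values have no stated background. Control probe sets (64) were left out, values under 16 were set to 16, and log2 was taken. The lowest 25% by mean log2 (under 6.16) were left out, which left 33778 probe sets. Ihh-ablated and control arrays (3 each) were set against each other by lmFit and eBayes of limma 3.58.1 (R 4.3.3), with a variance trend on intensity (4 residual degrees of freedom, 5.25 prior ones), and with Benjamini-Hochberg adjustment over all of them and a threshold of 0.05. The fit was tested on simulated data. Genes were named from GEO's platform annotation where a probe set had 1 symbol, and lists used the brightest tested probe set per gene.

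The members and lists were chosen with earlier results of these data known, and cyclic loess, the striated muscle markers, the contrasts between probe sets of a gene, the promoter search and the comparison with probe sets of like intensity were added after seeing the data. Named genes were the 10 members, the 4 genes of lowest p in each list (other called ones are enumerated), and the 5 nearest profiles of Foxm1 and E2f1. Ihh, Gli1 and Ptch1 are given beside that rule as a check of the ablation. Alternatives changed the normalization, floor, filter, variance model, array weights, replicate block, arrays included, covariate, fold and probe set per gene. Plots were made in Python 3.11.15 (matplotlib 3.10.9).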

Additional observations from a re-analysis of the deposited data

How the results depend on the processing

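Dimness limits these results: most regulator probe sets lie near the array median, 6 of 24 lay below the intensity filter, and 3 arrays per group limit the precision. Of 724 calls over the array 376 were lower and 348 higher, and with median-centred arrays 201 and 286. The 724 became 374 without a variance trend, 1411 with array weights, and 1915 without both control replicate 3 and Ihh-ablated replicate 2. They became 23 with the adipocyte covariate, and 156 to 3569 when 1 array was left out. Regulator probe sets past the test (2) became 1 after quantile normalization, 1 with median-centred arrays, 1 after cyclic loess, 1 without the filter, 1 without a trend, 0 with the lowest 50% left out, 6 with array weights, 0 without both arrays, 0 with the covariate, and 0 to 5 with 1 array left out. Regulator genes past the test (1) became 0 after quantile normalization, 0 with median-centred arrays, 0 after cyclic loess, 0 with the lowest 50% left out, 4 with array weights, 0 without both arrays, 0 with the covariate, and 0 to 3 with 1 array left out. With array weights E2f7, Foxm1, Mybl2 and Rbl1 each had a probe set past the test, with adjusted p values of 0.0154 to 0.0414. Partner genes (0) became 1, higher, with array weights, with the replicate block, without both arrays and with the mean of a gene's probe sets, and 0 to 1 with 1 array left out. Upstream genes (3) became 0 with the covariate and 0 to 4 with 1 array left out. Replication targets (17) became 3 with the covariate and 11 to 18 with 1 array left out, and mitotic targets (21) became 4 and 14 to 23. The cause of these shifts was not tested. The 50% filter keeps only 4 regulator probe sets, and the fit without a filter tests all 24. The covariate takes 1 residual degree of freedom, as leaving out 1 array does. Its markers also differed between the groups, with sums of 3149 to 14022 in control and 11163 to 25988 in Ihh-ablated arrays. Covariate and genotype are thus partly confounded.

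Deviations of same-numbered arrays correlated at -0.15, -0.04 and 0.25 across probe sets, and those of differently numbered arrays at -0.24 to 0.32. So few values cannot tell whether the replicate numbers pair the samples. With the replicate number as a block 1562 probe sets were called over the array, 754 of them lower, against 724 without the block. In that fit 2 regulator probe sets passed, as without it, and 1 partner gene rose.

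Signs turned only in 4 probe sets, of Lin9, Rbl1 and E2f1, that never passed. Lin9 (1428639_at) read 0.093 with quantile normalization, 0.089 with median-centred arrays, 0.11 with cyclic loess, 0.053 without both arrays and -0.087 to 0.061 with 1 array left out. Lin9 (1443984_at) read 0.011 with quantile normalization, 0.027 with cyclic loess, 0.094 with the covariate and -0.32 to 0.061 with 1 array left out. Rbl1 (1432604_at) read -0.040 with the covariate and -0.072 to 0.18 with 1 array left out, and E2f1 (1447840_x_at) 0.020 with cyclic loess.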
